A study of Mus musculus with 2 samples.

Results

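Transcripts of the aminoacyl-tRNA synthetases were examined in primary mouse pituitary cells kept in either of 2 stabilization reagents. The 35 genes were chosen by symbol from the families of 19 cytosolic and 16 mitochondrial enzymes, out of 47069 genes in the count table, and all 35 were found. The choice used gene names and no threshold on a value. Whole pituitaries of randomly cycling C57BL/6 female mice, 10 to 12 weeks old, were dissociated with the enzymes collagenase and pancreatine, and each sample pooled 500000 to 700000 cells from 5 pituitaries. The cells of one sample went directly into RNA-Best, a buffer meant to preserve RNA together with the intact cell, and those of the other into RNAlater, the reference reagent. Both samples shared the same strain, sex and dissociation, and no other treatment or allele was named. Polyadenylated RNA was sequenced from 1 library per reagent, so differences between the reagents could be described but not tested.

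Each aminoacyl-tRNA synthetase attaches one amino acid to its matching tRNAs, the step at which the genetic code is read in chemical form. Cytosolic enzymes serve the ribosomes that make, among other proteins, the secreted hormones of a pituitary cell. A separate, nucleus-encoded set is imported into mitochondria and charges the tRNAs used to translate the few proteins of the mitochondrial genome, while Gars and Kars each encode both the cytosolic and the mitochondrial form of their enzyme. Several cytosolic enzymes, among them the fused glutamate and proline enzyme Eprs, sit in a large multi-synthetase complex held together by the scaffold proteins Aimp1, Aimp2 and Eef1e1.

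The libraries held 53915047 (RNA-Best) and 44917492 (RNAlater) counts. Levels are given as CPM, the count scaled by the library total, and levels of different genes are compared only as CPM per kb of the longest annotated transcript. The ratio is the log2 of RNA-Best over RNAlater with 0.5 CPM added to each, and its 95% interval covers counting error only, since PCR copies of a molecule are counted as separate reads. Over the 16504 genes that averaged 1 CPM or more the median ratio was -0.18. Other scalings raised the ratio of abundant genes by 0.17 (TMM), 0.18 (DESeq2 size factors) or 0.13 (total without the 2 most abundant genes), and by less where the pseudocount weighs on a low level. All 7 pituitary hormone genes of the endocrine list were detected, summing to 307051 CPM with RNA-Best and 239085 CPM with RNAlater. Most of this was Prl, at 235654 and 172302 CPM, whereas Tshb had 52.9 and 31.6 CPM. The libraries differed in markers of other cells, whose summed levels were 435 and 800 CPM for 10 endothelial genes (1 higher in RNA-Best), 608 and 815 CPM for 10 pericyte and fibroblast genes (0 higher), 268 and 241 CPM for 10 macrophage genes (6 higher) and 3200 and 1130 CPM for 5 erythroid genes (5 higher). Over all genes tested 33% were higher. The median ratios of these marker groups, in the same order, were -0.87, -0.75, 0.28 and 0.79. Relative to genes of similar transcript length, as described below, they were -0.65, -0.40, 0.11 and 0.76. No marker was at 0 in either library, and the part of these differences in the synthetase values was not tested. In bulk RNA, fewer cells of a type and less RNA per cell cannot be told apart.

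All 35 synthetase genes were detected in both libraries. The fewest counts were those of Pars2, the mitochondrial proline enzyme, with 165 in RNA-Best and 144 in RNAlater. Cytosolic enzymes stood well above mitochondrial ones in both libraries. The median cytosolic level was 16.8 CPM per kb in RNA-Best and 18.4 CPM per kb in RNAlater. The median of the 15 mitochondrial enzymes other than Lars2 was 3.01 and 3.32 CPM per kb, which is 5.59 and 5.54 times lower. All 19 cytosolic genes exceeded the highest of these 15 in RNAlater, and 14 of 19 did so in RNA-Best. In summed CPM the cytosolic set held 1248 in RNA-Best and 1416 in RNAlater, against 197 and 203 for the 15 mitochondrial genes. The order of the compartments did not rest on the length used. With the union of annotated exons the medians differed 4.70- and 5.78-fold, and with the transcript that has the longest coding sequence 3.87- and 3.54-fold. This last length was another one for 12 members, since the longest transcript of Kars and of Cars2, for example, is a single unspliced exon.

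The highest cytosolic levels belonged to the serine, lysine and asparagine enzymes. Sars (chromosome 3, 108424865-108445209, GRCm38) reached 48.2 CPM per kb in RNA-Best and 43.6 CPM per kb in RNAlater, Kars (chromosome 8, 111993443-112011323) 43.1 and 45.3, and Nars (chromosome 18, 64499647-64516652) 42.0 and 43.8. Sars ranked above Kars and Nars in RNA-Best and just below both in RNAlater. Per kb of its longest coding transcript it stood at 92.3 and 83.5 CPM per kb and led in both. The lowest was Iars, the isoleucine enzyme, at 5.96 and 9.01 CPM per kb, so that the cytosolic set spanned 8.10-fold in RNA-Best and 5.03-fold in RNAlater. The phenylalanine enzyme is built of equal numbers of 2 subunits. Its alpha subunit gene Farsa stood at 9.80 and 11.3 CPM per kb and its beta subunit gene Farsb at 13.5 and 15.9. The ratio of alpha to beta was 0.727 and 0.712 on this scale but 1.33 and 1.30 per kb of the longest coding transcript, so which subunit was more abundant depended on the transcript assumed, whereas the ratio differed little between the libraries on either scale.

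**Figure D1:**
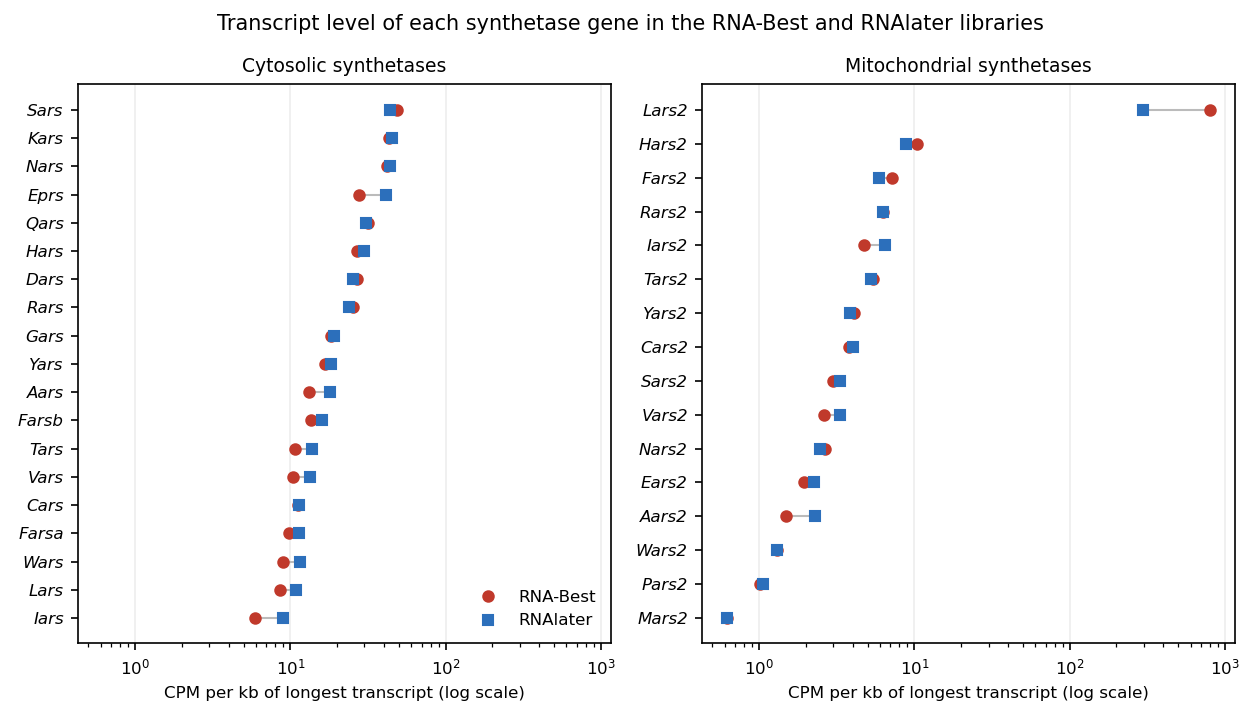
Level of each synthetase gene as CPM per kb of its longest transcript (horizontal log axis), with cytosolic enzymes on the left and mitochondrial enzymes on the right, circles for RNA-Best and squares for RNAlater (1 library each). Most cytosolic genes lie between 5.96 and 48.2 CPM per kb, most mitochondrial genes below 10.4, and Lars2 stands far above all others.

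Among the mitochondrial enzymes other than Lars2, the levels spanned 16.7-fold in RNA-Best and 14.2-fold in RNAlater. The histidine enzyme Hars2 (chromosome 18, 36783008-36792562) was highest, at 10.4 and 8.79 CPM per kb. Its gene lies head to head with Hars on the opposite strand, and 145 of its 51-base stretches, the length of a read, also lie in Hars transcripts. The phenylalanine enzyme Fars2 (chromosome 13, 36117412-36726280) stood at 7.17 and 5.93 CPM per kb, the arginine enzyme Rars2 (chromosome 4, 34614957-34660167) at 6.31 and 6.29, and the isoleucine enzyme Iars2 at 4.70 and 6.43. Fars2 was thus second in RNA-Best and Iars2 in RNAlater, a rank that depended on the length used. Per kb of the longest coding transcript the threonine enzyme Tars2 was second in both libraries, at 8.16 and 7.91 CPM per kb. Per kb of the union of exons Rars2 was second in both, at 4.25 and 4.24. At the other end were the tryptophan enzyme Wars2 at 1.30 and 1.30 CPM per kb, Pars2 at 1.005 and 1.05, and the methionine enzyme Mars2 at 0.624 and 0.617. Mars2 is annotated as a single exon of 11294 bases, of which 1758 are coding, so that a shorter expressed transcript would raise its level per kb.

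The ratio between the reagents was within 1.5-fold for 33 of the 35 synthetases. By CPM 13 of 35 were higher in RNA-Best, against 33% of all genes tested, and 22 were lower, against 67%. The counting interval lay above 0 for 5 members, against 20.2% of all genes, and below 0 for 17, against 51.2%. A ratio at least 1.5-fold lower was found for 1 member, Iars, against 18.8% of all genes, and at least 2-fold lower for 0 members, against 4.99%. Lars2 alone was at least 1.5-fold higher (3.22% of all genes) and at least 2-fold higher (0.273%). Compared with the all-gene median rather than with 0, 22 of 35 members lay above (50% of all genes), namely 10 of 19 cytosolic and 12 of 16 mitochondrial. The interval lay wholly above that median for 15 members, against 33.2% of all genes, and wholly below it for 10, against 36.6%.

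**Figure D2:**
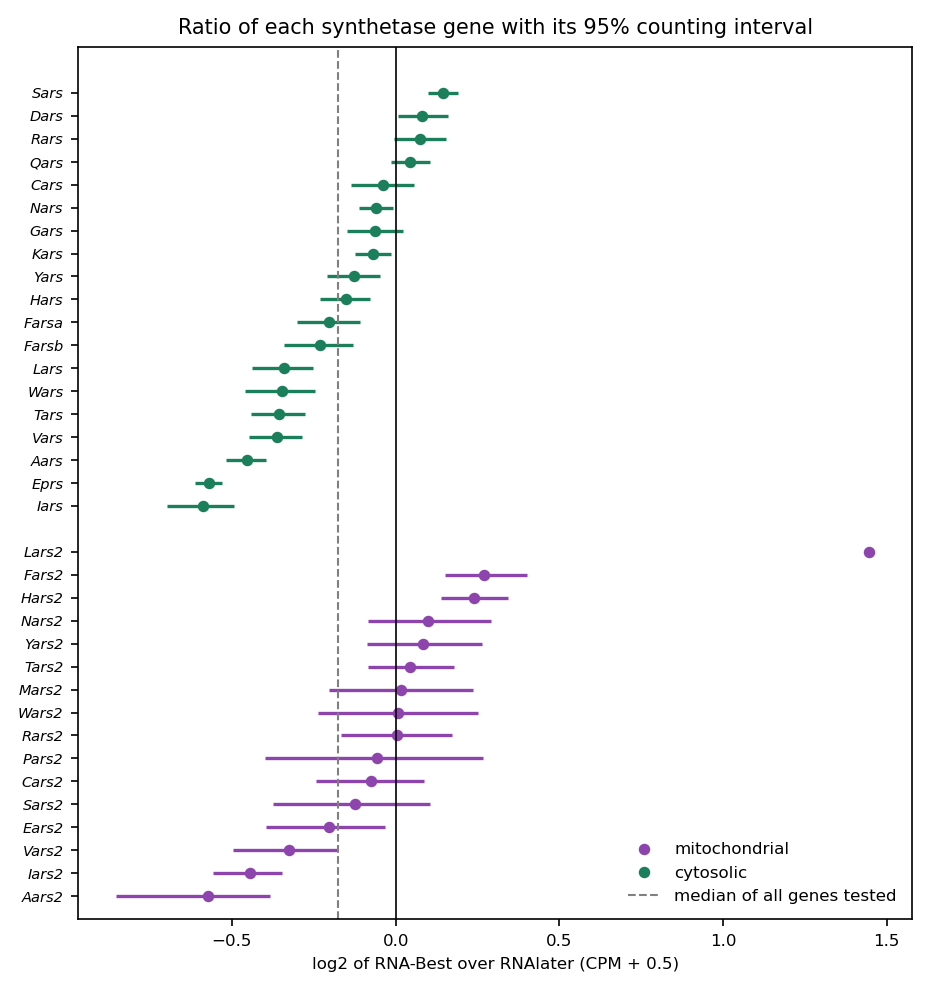
Log2 ratio of RNA-Best over RNAlater (horizontal axis, CPM with 0.5 added) for the 19 cytosolic and 16 mitochondrial synthetase genes, with bars for the 95% counting interval, a solid line at 0 and a dashed line at the median of all genes tested (-0.18). Cytosolic ratios run from -0.59 to 0.14 and mitochondrial ratios from -0.57 to 0.27, apart from Lars2 at 1.45.

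Cytosolic enzymes were mostly lower in RNA-Best by CPM, as were 67% of all genes. The ratio was above 0 for 4 of 19, against 33% of all genes. The median was -0.15, which is 0.02 above that of all genes. The interval lay above 0 for 2 genes (Sars and Dars), against 20.2% of all genes, and below 0 for 13, against 51.2%. Under TMM and under DESeq2 size factors 10 of 19 were higher, against 48.6% and 49.6% of all genes, and without the 2 most abundant genes 8 of 19, against 44.5%. With either of the first 2 scalings the sign changed for Cars, Gars, Hars, Kars, Nars and Yars.

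The highest cytosolic ratio belonged to Sars, at 172 CPM with RNA-Best and 156 CPM with RNAlater, which gives 0.14 (0.10 to 0.19). The aspartate enzyme Dars (chromosome 1, 128363707-128417368) followed, at 58.7 and 55.5 CPM and a ratio of 0.08 (0.01 to 0.16). The arginine enzyme Rars (chromosome 11, 35808381-35834506) had 53.4 and 50.7 CPM, a ratio of 0.07 (-0.01 to 0.16). Only the first 2 of these intervals excluded 0, and none reached 1.5-fold.

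At the lower end stood Iars (chromosome 13, 49682100-49734267), with 26.4 CPM for RNA-Best, 39.9 CPM for RNAlater and a ratio of -0.59 (-0.70 to -0.50). A processed pseudogene, Gm4849, shares 361 of the 5273 read-length stretches of Iars, and the Iars counts hold a fraction. Eprs (chromosome 1, 185363044-185428360) had 157 and 233 CPM, a ratio of -0.57 (-0.61 to -0.53). The alanine enzyme Aars (chromosome 8, 111033144-111057664) had 75.6 and 104 CPM, a ratio of -0.45 (-0.52 to -0.40), and it overlaps Exosc6 on the same strand. The longest transcripts of these 3 genes have 4426, 5638 and 5750 bases.

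The remaining cytosolic enzymes filled the range between. The valine (Vars), threonine (Tars), tryptophan (Wars) and leucine (Lars) enzymes had ratios of -0.36, -0.36, -0.35 and -0.34, each with an interval below 0. Farsb stood at -0.23 (-0.34 to -0.13) and Farsa at -0.20 (-0.30 to -0.11), so the 2 subunits of the phenylalanine enzyme had overlapping intervals. The histidine enzyme Hars was at -0.15 and the tyrosine enzyme Yars at -0.13. Kars, the glycine enzyme Gars, Nars and the cysteine enzyme Cars lay between -0.07 and -0.04, and the intervals of Gars and Cars held 0. The glutamine enzyme Qars was at 0.04 (-0.01 to 0.10).

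Mitochondrial enzymes were spread around 0. By CPM 9 of 16 were higher in RNA-Best, against 33% of all genes, with a median of 0.00. Without Lars2 8 of 15 were higher, with the same rounded median. The median lay 0.18 above that of all genes. The interval lay above 0 for 3 (Lars2, Fars2 and Hars2), against 20.2% of all genes. It lay below 0 for 4, against 51.2%, and held 0 for 9. Under TMM and under DESeq2 size factors 12 of 16 were higher, against 48.6% and 49.6% of all genes, with Cars2, Pars2 and Sars2 changing sign, and without the 2 most abundant genes 11 of 16, against 44.5%.

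After Lars2, Fars2 had the highest mitochondrial ratio. Its level was 24.1 CPM with RNA-Best and 19.9 CPM with RNAlater, a ratio of 0.27 (0.15 to 0.40). Hars2 had 34.7 and 29.3 CPM, a ratio of 0.24 (0.14 to 0.34). Both overlap other genes on the opposite strand, Fars2 with Lyrm4 and Nrn1 and Hars2 with Hars, and whether the counting used strand was not stated. The lowest mitochondrial ratio was that of the alanine enzyme Aars2 (chromosome 17, 45506841-45520843), at 4.99 and 7.66 CPM and -0.57 (-0.85 to -0.38). The isoleucine enzyme Iars2 (chromosome 1, 185284726-185329396) had 25.7 and 35.2 CPM, a ratio of -0.44 (-0.56 to -0.35), and shares 22.7% of its read-length stretches with other genes, mainly Rab3gap2 on the opposite strand. The valine enzyme Vars2 (chromosome 17, 35655634-35667592) had 11.6 and 14.7 CPM, a ratio of -0.33 (-0.50 to -0.18). These were the 3 mitochondrial enzymes with the longest coding sequences. The glutamate enzyme Ears2 was the fourth with an interval below 0, at -0.20 (-0.40 to -0.03). The other 9, for asparagine (Nars2), tyrosine (Yars2), threonine (Tars2), methionine (Mars2), tryptophan (Wars2), arginine (Rars2), proline (Pars2), cysteine (Cars2) and serine (Sars2), lay between -0.12 and 0.10 with intervals that held 0.

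Lars2, the gene of the mitochondrial leucine enzyme (chromosome 9, 123366927-123462666), stood apart from the family in both level and ratio. Its level was 3137 CPM with RNA-Best (3122 to 3152) and 1151 CPM with RNAlater (1141 to 1161), a ratio of 1.45 (1.43 to 1.46). It was the 11th most abundant gene in RNA-Best and the 46th in RNAlater. At 806 and 296 CPM per kb it was 77.5 and 33.6 times the next mitochondrial enzyme, and it alone took 94.1% and 85.0% of the summed CPM of the 16 mitochondrial genes.

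The counts of Lars2 were not whole numbers, as arises when a read is divided between features. Of its 11220 read-length stretches 20 (0.178%) occur unchanged in other genes, among them 18 in Gm47414 and 15 in Gm36618, both not analysed here, and 2 in Gm15564. A stretch of 72 bases in the 3' untranslated part of its last exon (chr9:123462048-123462119, GRCm38) matched Gm15564, annotated as an antisense gene on chromosome 16, at 71 bases. The first 30 bases of the 52 that are identical in both are shown because reads from within this stretch cannot be told apart between the genes, in GENCODE M21 sequence at chr9:123462048-123462077 on the plus strand.
Lars2: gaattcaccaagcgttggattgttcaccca

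Gm15564 had a ratio of 1.46 (1.43 to 1.49), and the counts of Lars2 per count of Gm15564 were 4.15 in RNA-Best and 4.19 in RNAlater, a log2 difference of -0.02 (-0.05 to 0.02). The gene CT010467.1, annotated as rRNA on chromosome 17, had a ratio of 1.80 (1.79 to 1.81), and the mitochondrial rRNA genes mt-Rnr1 and mt-Rnr2 0.48 and 0.65. Lars2 per count of CT010467.1 was 0.681 and 0.869. The neighbouring lincRNA gene Gm26917 had a ratio of 0.52, with 10.5 and 5.54 counts of Lars2 per count. The table holds no position of a read within a gene, so whether the Lars2 counts came from this stretch was not tested, and they are not read here as the level of the leucine enzyme mRNA. Gm15564, CT010467.1, Gm26917 and the mitochondrial rRNA genes were chosen after their values were seen.

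Enzymes for the same amino acid in both compartments could be set side by side for 15 amino acids, with Eprs standing on the cytosolic side for glutamate and for proline and the mean of Farsa and Farsb for phenylalanine. Per kb the cytosolic enzyme was more abundant for 14 of 15 in each library, leucine being the exception. Without leucine the cytosolic level was 1.27 to 27.7 times the mitochondrial level in RNA-Best and 1.40 to 39.3 times in RNAlater, lowest for isoleucine and highest for proline. Per kb of the longest coding transcript the same 14 amino acids had the higher cytosolic level.

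In ratio, the mitochondrial enzyme lay above its cytosolic partner for 11 of 15 amino acids, and for 10 of 14 without leucine. The median difference was 0.21, or 0.18 without leucine. The counting interval of the difference lay above 0 for 6 of these 14, namely glutamate, proline, phenylalanine, histidine, threonine and tryptophan, held 0 for 8 and lay below 0 for 0. Glutamate and proline share Eprs as the cytosolic partner, so their differences are not independent. Before the adjustment for length given below, the widest gap after leucine was proline, with Pars2 0.51 above Eprs (0.13 to 0.88). Phenylalanine followed at 0.49 (0.27 to 0.72). Serine ran the other way, with Sars2 0.27 below Sars, a difference of -0.27 whose interval of -0.56 to 0.01 held 0. For 4 amino acids both enzymes had intervals below 0, with ratios of -0.57 and -0.20 for glutamate (Eprs, Ears2), -0.45 and -0.57 for alanine (Aars, Aars2), -0.59 and -0.44 for isoleucine (Iars, Iars2) and -0.36 and -0.33 for valine (Vars, Vars2).

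**Figure D3:**
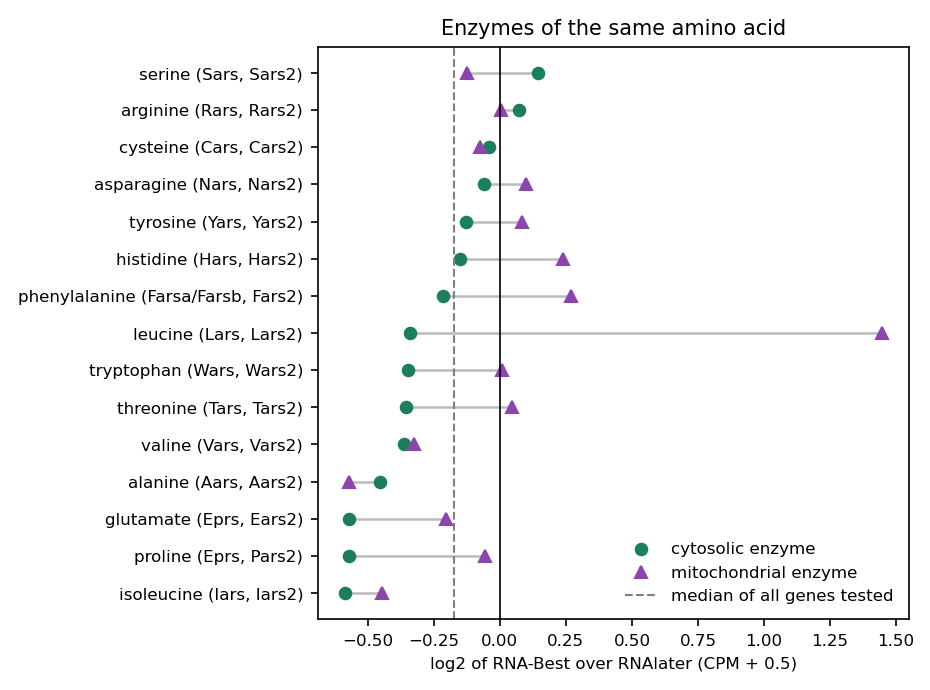
Log2 ratio of RNA-Best over RNAlater (horizontal axis) for the cytosolic (circle) and mitochondrial (triangle) enzyme of each of 15 amino acids, sorted by the cytosolic ratio, with a solid line at 0 and a dashed line at the median of all genes. The mitochondrial enzyme lies to the right for 11 of 15 amino acids, and the alanine, glutamate, isoleucine and valine enzymes lie left of the dashed line in both compartments.

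Because ratios of these libraries fall with transcript length across all genes, each synthetase was also set against genes of its own length class. The classes were up to 1, 1-2, 2-3, 3-4, 4-6, 6-10 and over 10 kb, with all-gene medians running from 0.28 to -0.90. After subtraction of the class median, 23 of 35 members lay above their class, against 50% of all genes. The cytosolic median became 0.02 and the mitochondrial median 0.18, a difference of 0.16, as large as the unadjusted difference of 0.16. This difference between compartments depended on the transcript assumed. It was 0.18 to 0.24 with the median transcript, the union of exons or a smooth trend on length, but 0.08 with the transcript that has the longest coding sequence, or 0.05 without Lars2.

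Single members moved by this adjustment. Eprs, Iars and Aars, at -0.57, -0.59 and -0.45 unadjusted, lay at -0.17, -0.19 and -0.06 relative to genes of 4-6 kb. Aars2 then had the lowest value of the family, at -0.35 relative to genes of 3-4 kb. Wars was at -0.26, and its transcript with the longest coding sequence is 1824 bases rather than 2878. At the other end, Mars2 lay 0.91 above the median of genes over 10 kb. Mars2 is in that class through its annotated exon of 11294 bases, of which 1758 are coding, and its unadjusted ratio was 0.02. A shorter expressed transcript would place it in another class. Fars2 and Hars2 lay 0.49 and 0.46 above their class medians, Wars2 0.40 and Sars 0.37. Between partner enzymes without leucine, the adjusted mitochondrial ratio was higher for 10 of 14 amino acids, with a median difference of 0.22. The widest of these gaps were then histidine at 0.68 and tryptophan at 0.66, while proline was at 0.34 and serine at -0.56.

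**Figure D4:**
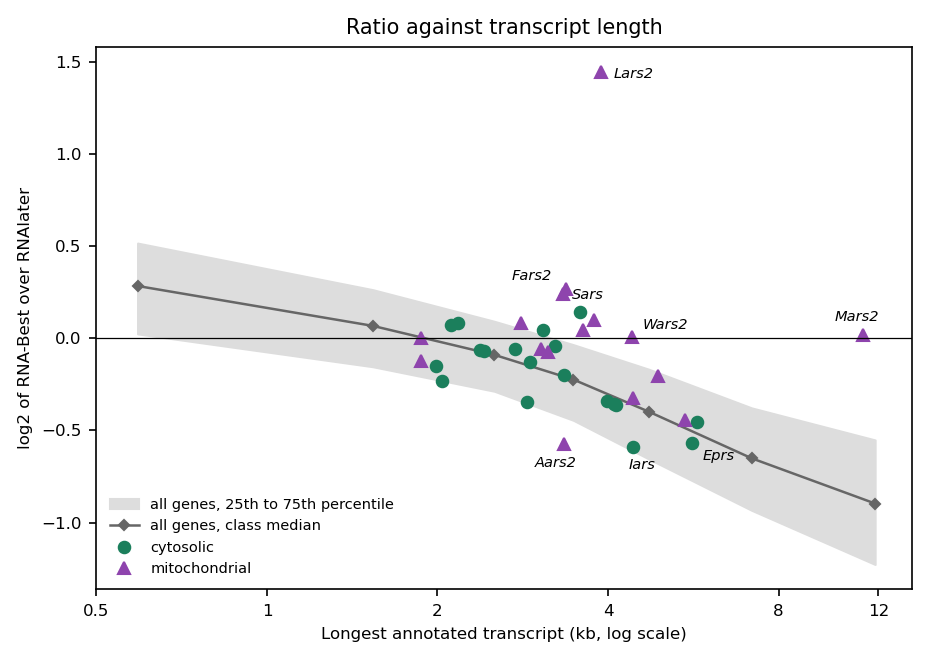
Log2 ratio of RNA-Best over RNAlater against the length of the longest annotated transcript (log axis, kb) for cytosolic (circles) and mitochondrial (triangles) synthetases, with the median of all genes in each of 7 length classes (line) and their 25th to 75th percentile (band). The line falls from 0.28 to -0.90, most members lie in or near the band, and Lars2 and, at its annotated length, Mars2 lie far above it.

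Ratios were also set against coding length. Across the 34 members without Lars2, Spearman's rho of the ratio was -0.62 with coding length, -0.34 with the longest transcript and -0.26 with GC content. Among all genes tested it was -0.62 with coding length (13824 genes) and -0.64 with the longest transcript (16443 genes). All genes of one library share its depth and preparation and are not independent replicates, so these values are descriptions. Over the 19 cytosolic genes rho was -0.49 with coding length and -0.60 with the longest transcript, and over 15 mitochondrial genes -0.69 and -0.15. With a limit of 2400 coding bases, chosen after the values were seen, 0 of 9 members at or above it were higher in RNA-Best and their median was -0.44. These were Eprs, Vars, Iars, Lars, Aars and Cars of the cytosolic set and Vars2, Iars2 and Aars2 of the mitochondrial set. Of the 25 below the limit 12 were higher, with a median of -0.06. With a limit of 2000 bases, also chosen after the values were seen, 2 of 13 at or above it were higher, with a median of -0.36, and 10 of 21 below it, with a median of -0.06. The share of all coding genes was not taken at this second limit, and over all genes tested 33% were higher. Among all coding genes tested, 97.5% of those with at least 2400 coding bases were lower, with a median of -0.65, and 65.0% of the shorter ones, with a median of -0.12.

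The groups within the family were also compared. The 7 members that belong to the multi-synthetase complex had a median ratio of -0.07 and the 12 outside it -0.18, and relative to genes of their length they stood at 0.02 and 0.03. Class I and class II enzymes, which differ in the fold of their catalytic domain, had medians of -0.08 and -0.06 over 17 genes each. Relative to genes of their length they stood at 0.15 and 0.03. Within the cytosolic set the class I and class II medians were -0.23 and -0.11, and within the mitochondrial set without Lars2 -0.04 and 0.04. Eprs joins an enzyme of each class in one protein and was left out of both classes.

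Neighbouring genes of translation were compared to place the family, beside the 33% of all genes tested that were higher in RNA-Best. All 3 scaffolds of the complex were higher in RNA-Best, with ratios of 0.54 (0.47 to 0.62) for Aimp1, 0.21 (-0.04 to 0.50) for Aimp2 and 0.16 (0.02 to 0.31) for Eef1e1, whereas the 7 enzymes of the complex that are among the members had a median of -0.07. Of 9 other genes of tRNA charging and editing that were tested, 5 were higher, with a median of 0.01. They ranged from -0.25 for Gatc, a subunit of the mitochondrial enzyme that converts misloaded glutamate to glutamine on its tRNA, to 0.25 for Dtd1, which removes D-amino acids from tRNA. Aarsd1, an alanyl-tRNA editing protein, was under the limit of 1 CPM at 0.408 and 0.468 CPM.

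The elongation factors, which carry the charged tRNA to the ribosome and move it along, were higher for 7 of 9, with a median of 0.30. Eef1b2, an exchange factor of the cytosolic elongation factor Eef1a1, was at 0.87 (0.84 to 0.89) and Eef1a1 at 0.55 (0.53 to 0.56). Of the mitochondrial factors, Tufm and Tsfm stood at 0.27 and 0.30 and Gfm1 and Gfm2 at -0.27 and -0.02. Of 77 mitochondrial ribosomal protein genes 68 were higher, with a median of 0.28, compared with 0.00 for the mitochondrial synthetases that supply the same ribosomes. Relative to genes of their own length the medians were 0.29 and 0.18.

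Atf4 encodes the transcription factor that raises many cytosolic synthetase genes when amino acids are short or protein folding is disturbed. Its ratio was -0.01 (-0.04 to 0.01), at 477 and 482 CPM. Of 16 genes of this response 4 were higher in RNA-Best, against 33% of all genes. Their median was -0.13, beside -0.15 for the cytosolic synthetases. Relative to genes of the same length the medians were -0.08 and 0.02. Asns, the asparagine synthetase gene used as a marker of the response, had 60.8 and 59.8 CPM and a ratio of 0.02 (-0.05 to 0.10). The lowest of the 16 was Eif2ak4, the kinase that senses uncharged tRNA, at -0.63 (-0.78 to -0.52). Relative to genes of the same length Eif2ak4 was at -0.24, and Sesn2 was lowest at -0.34.

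**Figure D5:**
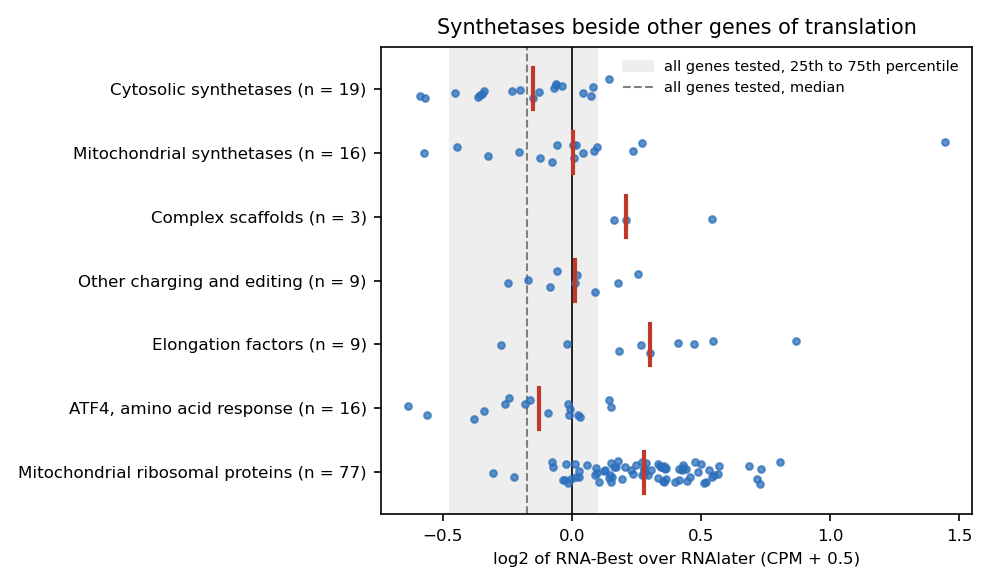
Log2 ratio of RNA-Best over RNAlater (horizontal axis) of single genes (points, spread vertically only for legibility) in 7 groups of translation genes, with a bar at each group's median, a solid line at 0, and the all-gene median (dashed) and 25th to 75th percentile (band). Medians are -0.15 for cytosolic and 0.00 for mitochondrial synthetases, 0.30 for elongation factors and 0.28 for mitochondrial ribosomal proteins.

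Promoter windows, from 250 bases before to 50 after the transcription start in RefSeq on GRCm38.p6, were matched by symbol for 26 members, 12 cytosolic and 14 mitochondrial. The 9 others were Cars, Hars, Lars, Nars, Rars, Vars, Wars, Hars2 and Pars2. Both strands were searched for TGATGNAA, the core of the C/EBP-ATF response element through which Atf4 acts, for GCATGCGC, the core of the site of the nuclear respiratory factor NRF1, and for CCGGAAGT, a site of ETS factors. No pair of these motifs overlapped in a member. The first was found in 5 of 12 cytosolic windows (Aars, Gars, Iars, Tars and Yars) and 0 of 14 mitochondrial windows, against 4.51% of all 27025 genes with a window. The second was found in 3 of 14 mitochondrial windows (Rars2, Vars2 and Wars2) and 0 of 12 cytosolic windows, against 3.05% of genes. The third was found in Farsa and Rars2, against 4.31% of genes. A match of letters is not a bound site, and its absence says only that these letters are not in the window.

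The stretches around both cores are shown because each core was found in a single compartment among these windows. Only the motifs named above were searched, so other differences between the windows were not examined. Positions count from the transcription start, capitals mark the motif, and TTGCATCA or TTTCATCA is the first motif read on the opposite strand. The stretches are chr8:111033840-111033869 for Aars (plus strand), for Gars chr6:55037881-55038030 (plus), for Iars chr13:49682126-49682155 (plus), for Tars chr15:11399636-11399778 (minus) and for Yars chr4:129189895-129189924 (plus).
Aars, from position -2: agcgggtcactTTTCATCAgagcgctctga
Gars, from position -120: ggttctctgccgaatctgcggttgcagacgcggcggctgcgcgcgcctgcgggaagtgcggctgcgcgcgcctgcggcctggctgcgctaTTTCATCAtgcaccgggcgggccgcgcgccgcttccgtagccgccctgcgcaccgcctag
Iars, from position -4: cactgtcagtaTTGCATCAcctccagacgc
Tars, from position -120: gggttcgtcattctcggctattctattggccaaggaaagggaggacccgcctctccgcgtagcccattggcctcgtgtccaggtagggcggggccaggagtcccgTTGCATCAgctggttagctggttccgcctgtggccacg
Yars, from position -8: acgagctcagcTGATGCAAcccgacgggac

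The NRF1 core lies before the start in all 3 mitochondrial genes. It occurs a second time in Vars2. The stretches are chr4:34614895-34614924 for Rars2 (plus), chr17:35667563-35667712 for Vars2 (minus) and chr3:99140970-99141097 for Wars2 (plus), where GCGCATGC is the motif on the opposite strand.
Rars2, from position -62: cggccccgtgtGCATGCGCactccacactt
Vars2, from position -120: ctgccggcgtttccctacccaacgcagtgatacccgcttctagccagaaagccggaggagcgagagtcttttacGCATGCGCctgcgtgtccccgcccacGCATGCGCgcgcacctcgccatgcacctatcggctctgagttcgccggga
Wars2, from position -120: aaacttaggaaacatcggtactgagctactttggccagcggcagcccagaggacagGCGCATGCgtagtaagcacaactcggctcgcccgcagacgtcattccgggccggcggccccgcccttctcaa

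The 5 cytosolic genes with the C/EBP-ATF core had ratios of -0.59 to -0.06 with a median of -0.36, and 0 of 5 were higher in RNA-Best. The 7 cytosolic genes with a window but without it had ratios of -0.57 to 0.14 with a median of -0.07, and 3 of 7 were higher. Over all genes tested 33% were higher, and groups of 5 and 7 are small beside that share. The first group had longer transcripts, with a median of 4093 bases against 3066. Relative to genes of the same length the medians were -0.04 and 0.02. The 3 mitochondrial genes with the NRF1 core had a median of 0.00 and the 10 others with a window, Lars2 apart, -0.03, while relative to genes of the same length the order was opposite, at 0.07 and 0.18.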

How the data were processed

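Bulk RNA-seq counts of 2 mouse pituitary samples were used, grouped by the reagent in the labels with 1 library per group. Reads were assigned to genes by the authors, who deposited 1 table of estimated counts that were not normalized. Values were fractional for 11 of the 35 synthetases. The submitters' processing notes name STAR 2.5.1b, featureCounts 1.5.0-p1 and the build mm10; the handling of shared reads and the strand setting are not given in the sources used here. ERCC spike-ins, named by the study, are not used here.

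Counts were divided by the library total (CPM). Symbols, coordinates and lengths came from GENCODE M21 on GRCm38, which matched 46574 of 47069 identifiers (98.9%). Log2 ratios used a pseudocount of 0.5 CPM, which understates ratios of weakly expressed genes, over genes averaging 1 CPM or more. Rounded counts gave the exact conditional binomial intervals (95%) and the scaling factors of edgeR 4.0.16 and DESeq2 1.42.0 in R 4.3.3. Intervals of the difference between partner enzymes and of Lars2 per count of Gm15564 combine those counting errors. The design left no residual degrees of freedom, so no model was fitted and no p-value is given. Shared sequence was found as 51-base stretches, the read length, and with blastn 2.17.0. Other tools were Python 3.11.15, numpy 2.4.6, scipy 1.17.1, pandas 2.3.3 and statsmodels 0.14.6. The steps were tested on simulated data. One promoter stretch is not reported here. All members are named, in full for the 3 highest and 3 lowest ratios and the 3 highest levels of each compartment. The members, gene lists and motifs were chosen with earlier results of these data known. Alternatives tried were other scalings, pseudocounts, filters and lengths, whole counts only, and Lars2 left out.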

Additional observations from a re-analysis of the deposited data

How the results depend on the processing

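No paired analysis was possible because the reagents had a single library each, without replicate numbers. For the same reason no library could be left out. The cytosolic median moved from -0.15 to 0.019 (TMM), 0.031 (DESeq2 size factors) and -0.026 (total without the 2 most abundant genes), and the mitochondrial median from 0.00 to 0.17, 0.18 and 0.13. The number of synthetases at least 1.5-fold lower moved from 1 to 0 under these 3 scalings and with a pseudocount of 1 CPM, and to 2 with 0.1 CPM. Against 0.16 and 0.21 with CPM, the median difference between compartments was between 0.147 and 0.152 and that between partners between 0.205 and 0.210 under these 3. A scaling shifts every ratio by the same amount apart from the effect of the pseudocount. The shift cancels in a difference, so these 3 scalings could not show whether the differences are stable. The pseudocounts, filters, lengths and choices of members run for the compartment medians and their difference, and the pseudocounts and the omission of leucine run for the partner difference, moved them by less than the median counting error of their members. Within that error, the length-adjusted difference between compartments still ran from 0.08 to 0.24 with the length used, so its size depended on the transcript assumed. Of the 35 single ratios, 26 moved beyond their counting interval under TMM, 28 under DESeq2 size factors, 23 without the 2 most abundant genes and 0 with either other pseudocount. Of the 70 levels per kb, 64 moved with the union of exons and 20 with the transcript that has the longest coding sequence, an alternative chosen after seeing the data. Depth limits the weakest mitochondrial genes, whose intervals were wide, as for Pars2 (-0.40 to 0.27).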
